A study of Mus musculus with 3 samples.

Results

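The endoplasmic reticulum (ER) folding and secretory pathway genes examined here are 36 genes named by symbol, and all 36 were found among the 31053 genes of the count tables. They comprise 11 chaperones and co-chaperones, 5 disulphide isomerases, 3 genes of ER-associated degradation, the transcription factor Xbp1, 7 genes of the Sec61 translocon and the TRAP complex beside it, 3 signal peptidase subunits, 4 oligosaccharyltransferase genes and 2 KDEL receptors. They were followed gene by gene across cells gated by acinar, ductal or Msln markers and across cells ranked by digestive enzyme level. Proteins bound for secretion enter the ER through the Sec61 channel, lose their signal peptide to signal peptidase, receive sugars from oligosaccharyltransferase and are folded by chaperones and disulphide isomerases, and KDEL receptors return escaped ER residents from the Golgi. Proteins that fail to fold are drawn out and destroyed by ER-associated degradation, and the unfolded protein response, in which the sensor Ire1 splices Xbp1 mRNA, raises the level of many of these genes. Pancreatic acinar cells make digestive enzymes in bulk and are known for an extensive ER, whereas ductal cells secrete mainly fluid and bicarbonate.

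Single epithelial cells were profiled from 3 mouse pancreatic tumours, 1 library each. Donor mice carried Msi2-Myc, by the title a Musashi2-CreER driver with MycT58A, and the R26-LSL-tdTomato reporter, so that tamoxifen marked and activated MYC in cells that express Musashi2. tdTomato+ epithelial cells taken 5 weeks after tamoxifen were grown as orthotopic tumours in NSG mice, a host without lymphocytes, and EpCAM+ cells of the end-stage tumours were sorted. All 3 tumours share genotype, treatment and host and form 1 group, no other tissue was analysed here, and every comparison was made within tumours. ASCP, PDAC and ACC tumours are named for the series as a whole, without a label that ties one to a library. The stated question was whether transcriptionally uncommitted precancerous cells can form several tumour subtypes.

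After filters, 1431, 253 and 2804 cells remained in tumours 1, 2 and 3, with medians of 1621, 1333 and 1605.5 unique molecular identifiers (UMIs) per cell. Cells with clearly more UMIs of one marker set than of the others were placed in an acinar gate (Ctrb1, Clps), a ductal gate (Tff1, Lgals4) or an Msln gate (Msln, Tm4sf1, F3). The acinar gate held 417, 44 and 1976 cells, the ductal gate 361, 85 and 190 cells, and the Msln gate 19, 2 and 27 cells, so that the Msln gate entered the tests for tumour 3 only. The 8 other acinar markers summed to between 5737 and 10655 CPM (UMIs scaled to a common total per sum) in the acinar gate, against 240 to 392 CPM in the ductal gate. The 8 other ductal markers summed to 2726 to 3722 CPM in the acinar gate, against 9104 to 13199 CPM in the ductal gate. Plasma cells, the other cell type known for a large ER, are EpCAM-negative and were represented by 6 markers. Jchain, Mzb1, Igkc and Ighm were at 0 UMIs in every gate and only Sdc1 and Cd79a had UMIs; the list summed to 31.2 to 88.2 CPM in the acinar gate and 97.6 to 132 CPM in the ductal gate. Fibroblast markers stayed at or below 0.801 CPM in the acinar gate and 8.71 CPM in the ductal gate.

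The acinar gate was not uniform in RNA quality. In 140 of 417, 4 of 44 and 1415 of 1976 acinar-gate cells, 10% or more of the UMIs came from Gm42418, AY036118, Gm26917 and Lars2, transcripts tied to the ribosomal RNA locus or read alongside it, against 23 of 361, 10 of 85 and 1 of 190 ductal-gate cells. These acinar-gate cells had median mitochondrial shares of 0.364%, 0.505% and 0.284%, against 2.37%, 2.06% and 2.79% in the acinar-gate cells below 10%. Libraries also shared barcodes: every one of the 1877, 641 and 3494 barcodes with 1000 or more UMIs had 10 or more UMIs in another library, and requiring 60% of a barcode's UMIs in its own library removed 7.86%, 50.5% and 0.989% of otherwise passing barcodes. Results are therefore given for all cells and, beside them, for cells below the 10% share, a split added after the data had been seen.

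Many ER chaperone promoters carry the ER stress response element, ERSE, bound by ATF6 and XBP1 together with NF-Y, and the promoters printed here were chosen to set members with such an element beside the members that differed most between gates. RefSeq promoter windows of GRCm38.p6 (the mm10 assembly), 250 bases before to 50 bases after the start site, were matched by symbol for 29 of the 36 members, in 30 windows. A search for 5 motifs was made on both strands. The ERSE (CCAAT and CCACG with 9 bases between) lay in 7 of 29 members, Calr, Canx, Creld2, Dnajc3, Hsp90b1, Hspa5 and Pdia6, against 0.137% of 27025 genes. The related ERSE-II (ATTGG and CCACG with 1 base between) lay in 2 members, Dnajb11 and Herpud1, against 0.0444% of genes, and no member held both forms. The core TGACGTGG of the unfolded protein response element lay in 0 members and 0.714% of genes, the cyclic AMP response element TGACGTCA in 0 members and 2.03% of genes, and the E-box CAGCTG in 2 members, Calr and Pdia3, or 6.90% of the 29, against 18.3% of genes. The 250 bases before the start site are given for Hspa5 (chr2:34771840-34772089, plus strand), Hsp90b1 (chr10:86705445-86705694, minus strand), Herpud1 (chr8:94386179-94386428, plus strand), Sel1l (chr12:91849158-91849407, minus strand) and Pdia2 (chr17:26199088-26199337, minus strand), each 5′ to 3′ on the gene's strand with ERSE or ERSE-II letters in capitals.
Hspa5: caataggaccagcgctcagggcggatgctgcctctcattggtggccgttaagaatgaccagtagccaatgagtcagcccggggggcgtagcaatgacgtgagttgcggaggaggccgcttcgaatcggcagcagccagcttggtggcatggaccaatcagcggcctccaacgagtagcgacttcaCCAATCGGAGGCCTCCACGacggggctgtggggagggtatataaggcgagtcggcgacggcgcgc
Hsp90b1: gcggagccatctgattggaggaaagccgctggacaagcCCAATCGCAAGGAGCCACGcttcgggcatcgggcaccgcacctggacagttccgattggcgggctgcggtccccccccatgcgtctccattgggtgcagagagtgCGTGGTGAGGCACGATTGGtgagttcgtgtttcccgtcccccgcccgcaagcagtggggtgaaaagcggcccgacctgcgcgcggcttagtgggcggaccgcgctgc
Herpud1: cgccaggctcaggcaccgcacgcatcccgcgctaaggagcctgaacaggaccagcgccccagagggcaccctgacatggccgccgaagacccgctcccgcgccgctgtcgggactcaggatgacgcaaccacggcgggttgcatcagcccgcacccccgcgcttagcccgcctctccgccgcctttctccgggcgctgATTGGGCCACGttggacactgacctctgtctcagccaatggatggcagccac
Sel1l: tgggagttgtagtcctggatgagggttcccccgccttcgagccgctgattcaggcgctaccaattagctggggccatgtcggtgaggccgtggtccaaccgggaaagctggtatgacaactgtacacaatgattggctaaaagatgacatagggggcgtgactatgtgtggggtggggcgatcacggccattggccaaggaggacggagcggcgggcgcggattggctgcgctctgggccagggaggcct
Pdia2: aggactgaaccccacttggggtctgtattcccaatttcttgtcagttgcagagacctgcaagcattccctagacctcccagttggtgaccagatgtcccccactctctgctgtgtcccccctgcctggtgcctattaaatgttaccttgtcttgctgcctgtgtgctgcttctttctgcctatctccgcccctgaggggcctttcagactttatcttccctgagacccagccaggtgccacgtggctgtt

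The capitals mark an ERSE at −65 to −47 in Hspa5, ERSE matches on opposite strands at −212 to −194 and −107 to −89 in Hsp90b1, and an ERSE-II at −52 to −42 in Herpud1. In Dnajb11 the ERSE-II lay just downstream of the start, at +8 to +18, within ggcggcgATTGGCCCACGcctggctgctcg (chr16:22857845-22857874, plus strand). The Sel1l and Pdia2 windows held neither element in these letters, and neither did those of Sdf2l1, Xbp1, Edem1 and Ssr1. Members with an ERSE or ERSE-II thus included genes that did and genes that did not differ between gates in the results that follow.

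In the acinar gate, 9 of the 36 members were higher and 2 were lower than in the ductal gate (edgeR's quasi-likelihood F test, blocked by tumour, with a Benjamini-Hochberg adjusted p under 0.05). Of all genes tested, 14.4% were higher and 15.5% lower (30.0% in either direction), so that the share of members called higher, 25.0%, was above this background and the share called lower, 5.56%, below it. The genes called higher were the chaperones and co-chaperones Hspa5, Dnajb11, Sdf2l1 and Manf, the isomerase Pdia2, the degradation genes Sel1l and Edem1, Xbp1 and the TRAP subunit Ssr1. Herpud1 and Ssr4 were lower. Pdia2, included in the 25.0%, passed the filter on low counts only through the acinar gate, so its call is not counted as support. The shares of all genes were not cleared of such genes either. Sums did not overlap between the gates for 8 members that were higher (16.7% of all genes) and 2 that were lower (16.5%). The median log2 difference was 0.22 over the members and 0.0044 over all tested genes. Summed over all members, the level was 10070, 8128 and 11447 CPM in the acinar gates of tumours 1, 2 and 3, against 8491, 7240 and 9937 CPM in their ductal gates, so the acinar gate was the higher one in each tumour although the ranges overlapped. A sum over the cells of a gate does not show whether fewer cells held the RNA of a member or each cell held less of it. Shares of cells with UMIs are given below for Sel1l and Hspa5.

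**Figure D1:**
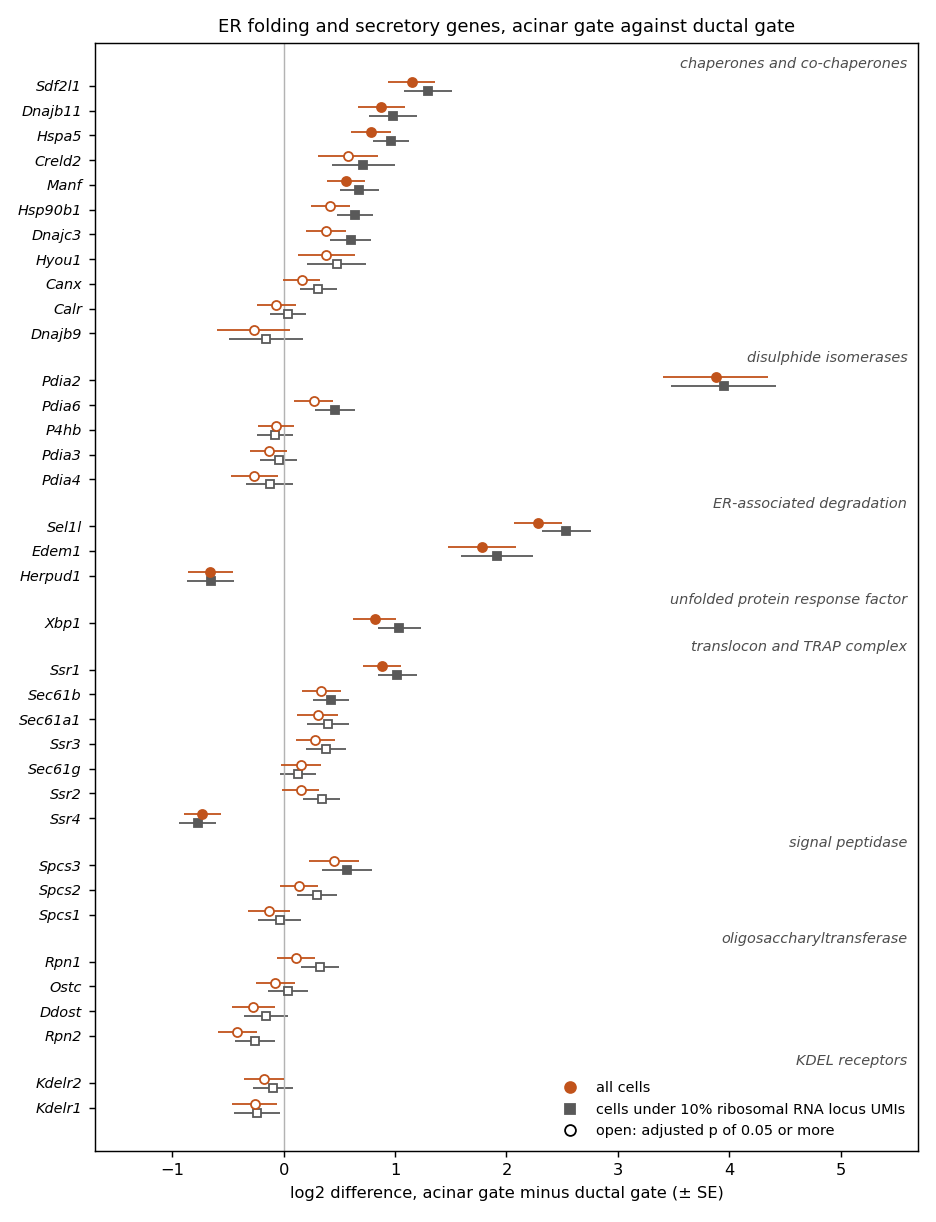
Log2 difference (± SE) of each of the 36 members between the acinar and the ductal gate, by role, for all cells (circles) and for cells below 10% ribosomal RNA locus UMIs (squares); open symbols have an adjusted p of 0.05 or more. Pdia2, with 5 UMIs in the ductal gates, and Sel1l (2.28) lie farthest to the right, and the oligosaccharyltransferase and KDEL receptor genes have open symbols throughout.

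Among the 11 chaperones and co-chaperones, 4 were higher in the acinar gate, none was lower and 7 did not pass. Sdf2l1 (chr16:17130138-17132383 in mm10, minus strand), a small co-chaperone that works with DnaJ proteins on BiP, had 145, 142 and 184 CPM in the acinar gates of tumours 1, 2 and 3, against 64.8, 54.8 and 86.4 CPM in the ductal gates, a log2 difference of 1.15 ± 0.21 (SE; adjusted p = 4.62e-07). Hspa5 (chr2:34771970-34777547, plus strand), the ER Hsp70 chaperone BiP, had 808, 682 and 980 CPM in the acinar gates, against 432, 399 and 613 CPM in the ductal gates, a log2 difference of 0.78 ± 0.18 (adjusted p = 8.19e-05). For both genes every acinar sum lay above every ductal sum. Dnajb11, a DnaJ partner of BiP, had 121, 124 and 148 CPM in the acinar gates, against 78.8, 62.6 and 69.4 CPM in the ductal gates, and its log2 difference was 0.87 ± 0.21 (adjusted p = 0.00028). Manf, an ER-resident stress protein that binds BiP, had 360, 212 and 393 CPM in the acinar gates, against 227, 133 and 290 CPM in the ductal gates, with a log2 difference of 0.56 ± 0.17 (adjusted p = 0.00538). Manf was higher in the acinar gate of each tumour, but its sums overlapped between gates because tumour 2 was low in both; it overlaps Rbm15b on the same strand in the annotation, and other genes on the opposite strand. The 7 chaperones that did not pass ranged in log2 difference from −0.27 for Dnajb9 to 0.57 for Creld2. They include the glycoprotein chaperones Calr and Canx, whose differences were −0.07 ± 0.18 and 0.16 ± 0.17, and Hsp90b1 (GRP94), whose adjusted p was 0.0553. On simulated counts of the same depth, the test recovered 43.4% of 2-fold and 87.4% of 4-fold changes. Those counts had few changed genes, the same spread for all genes and no tumour effect. The recovered shares therefore do not give the power for single members. A member that did not pass is not shown to be equal.

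Of the 5 disulphide isomerases, which form and reshuffle disulphide bonds, only Pdia2 was called, and its call is not counted as support. Pdia2 (chr17:26195999-26199087, minus strand), the isomerase known for its high level in normal pancreas, had 49.3, 44.3 and 59.8 CPM in the acinar gates, against 4.22, 0 and 3.39 CPM in the ductal gates, which held 5 of its UMIs in all against 271 in the acinar gates. Per total UMI, pooled over the tumours without their pairing, the acinar to ductal ratio was 15.1, with a 95% counting interval of 6.37 to 46.7. The sums did not overlap, and a fitted value for so few ductal UMIs (3.88 on the log2 scale) depends on the prior count. Pdia3, Pdia4, Pdia6 and P4hb ranged from −0.26 to 0.27, and none passed. Pdia3, the partner of Calr and Canx, had 310, 390 and 443 CPM in the acinar gates, against 349, 337 and 527 CPM in the ductal gates, and the order differed between tumours.

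All 3 members of ER-associated degradation were called, in different directions. Sel1l (chr12:91806043-91849157, minus strand), the adaptor of the Hrd1 ubiquitin ligase that extracts misfolded proteins, had 231, 212 and 243 CPM in the acinar gates, against 49.3, 39.1 and 49.1 CPM in the ductal gates, a log2 difference of 2.28 ± 0.22 (adjusted p = 3.01e-24). The values within each gate lay close together, and the gap between gates was several times their spread. Edem1, which steers misfolded glycoproteins to degradation, had 73.9, 8.85 and 70.4 CPM in the acinar gates, against 15.5, 23.5 and 22.0 CPM in the ductal gates. Its fitted log2 difference was 1.78 ± 0.31 (adjusted p = 1.32e-07), but tumour 2 went the other way, with 1 UMI in its acinar gate. Herpud1, an ER membrane protein that organises the ligase complex, was lower, with 87.4, 44.3 and 86.2 CPM in the acinar gates, against 114, 141 and 142 CPM in the ductal gates (log2 difference −0.66 ± 0.20, adjusted p = 0.00528). Every acinar sum of Herpud1 lay below every ductal sum. Its promoter carries the ERSE-II, and the part of that element in its level was not tested.

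Xbp1, the transcription factor of the Ire1 branch, had 188, 133 and 200 CPM in the acinar gates, against 90.1, 93.9 and 125 CPM in the ductal gates, a log2 difference of 0.82 ± 0.19 (adjusted p = 0.00019) without overlap. The 3′ counts do not separate spliced from unspliced Xbp1 mRNA. In the translocon and TRAP group, 1 of 7 was higher and 1 lower. Ssr1, the alpha subunit of TRAP, had 357, 381 and 354 CPM in the acinar gates, against 191, 196 and 198 CPM in the ductal gates (log2 difference 0.88 ± 0.17, adjusted p = 2.84e-06). Ssr4, the delta subunit of the same complex, had 380, 212 and 452 CPM in the acinar gates, against 642, 579 and 613 CPM in the ductal gates (log2 difference −0.73 ± 0.17, adjusted p = 9.85e-05). The alpha and delta subunits of one complex therefore differed in opposite directions, each without overlap between gates, while Ssr2 and Ssr3 were at 0.15 ± 0.17 and 0.28 ± 0.18 and did not pass. The Sec61 channel genes Sec61a1, Sec61b and Sec61g were at 0.30, 0.34 and 0.16, and none passed.

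None of the 3 signal peptidase, 4 oligosaccharyltransferase and 2 KDEL receptor genes passed. Their log2 differences ranged from −0.42 for Rpn2, a subunit of oligosaccharyltransferase, to 0.45 for Spcs3, a subunit of signal peptidase. The oligosaccharyltransferase genes together had 736 ± 140 CPM in the acinar gates and 810 ± 138 CPM in the ductal gates (SD, n = 3 tumours each), and the KDEL receptors 272 ± 26.1 CPM in the acinar gates and 295 ± 45.3 CPM in the ductal gates. The chaperones together had 3604 ± 622 CPM in the acinar gates and 2723 ± 588 CPM in the ductal gates. The 3 degradation genes together had 353 ± 75.5 CPM in the acinar gates and 199 ± 17.8 CPM in the ductal gates.

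**Figure D2:**
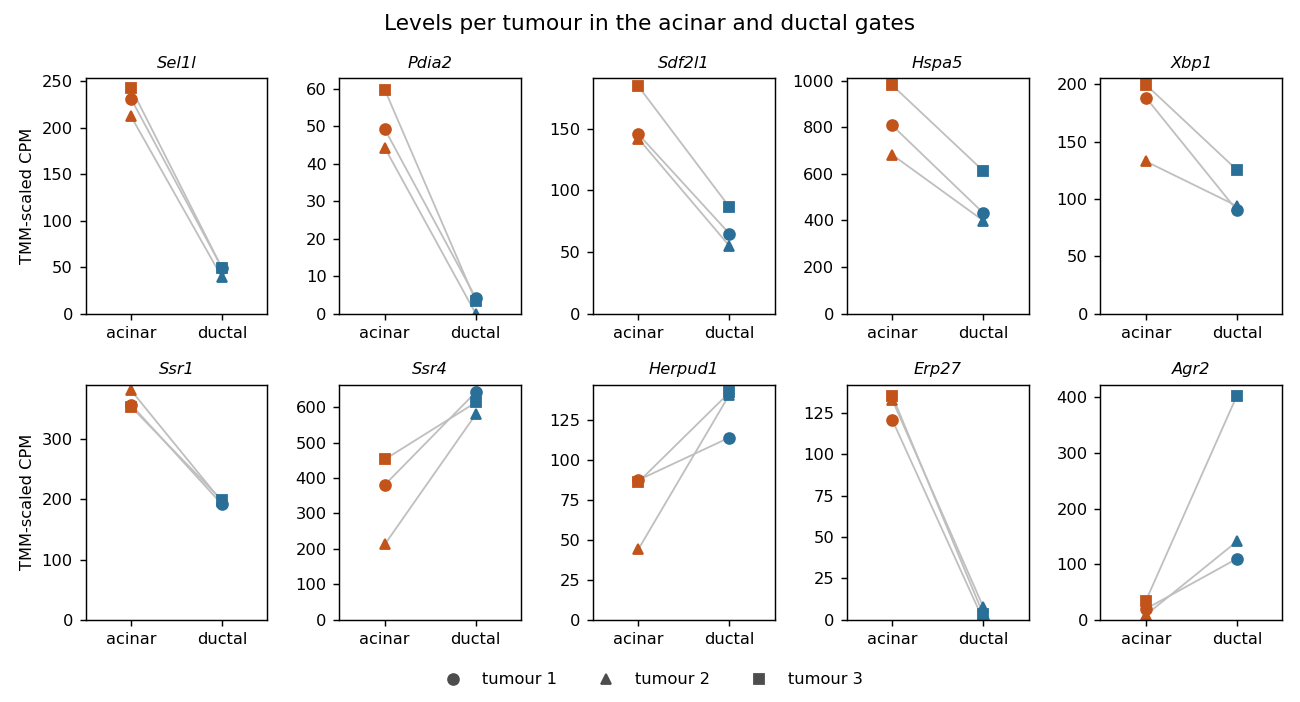
TMM-scaled CPM per tumour (symbols, joined by lines) in the acinar gate and the ductal gate for 8 members called between them and for the other pathway genes Erp27 and Agr2. Acinar values lie above ductal values for Sel1l, Pdia2, Sdf2l1, Hspa5, Xbp1, Ssr1 and Erp27, and below them for Ssr4, Herpud1 and Agr2.

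The counts differed between sets of acinar-gate cells. Among cells below 10% ribosomal RNA locus UMIs, 15 members were higher (15.0% of all genes) and 2 lower (16.1%; 31.1% in either direction), with a median log2 difference of 0.36. All 11 members called in all cells were called again in the same direction, and Hsp90b1, Dnajc3, Creld2, Pdia6, Sec61b and Spcs3 were added to those higher. With the acinar gate restricted to cells at 10% or more, tumour 2 had only 4 such cells and no acinar sum, which left 6 sums and 1 residual degree of freedom. In that fit 3 members were higher (6.71% of all genes) and 1 was lower (8.27%; 15.0% in either direction), and the median was −0.16. With all acinar-gate cells but without tumour 2, 10 members were higher (14.8% of all genes) and 2 lower (16.1%). Pdia2, Sel1l and Edem1 were the 3 called higher at 10% or more, Sel1l and Edem1 at log2 differences of 1.26 ± 0.34 and 1.53 ± 0.45 (adjusted p = 0.00248 and 0.00791), although tumour 2, in which Edem1 went the other way, no longer entered. The gene called lower was Rpn2 at −0.82 ± 0.29 (adjusted p = 0.032), and Hspa5 was at 0.33 ± 0.28 (adjusted p = 0.487). Cycling genes moved with the gates as well, at 2867, 3700 and 2589 CPM of the UMIs outside the ribosomal RNA locus in the acinar gates, against 1392, 1211 and 948 CPM in the ductal gates; their part in the result was not tested. Without tumour 1, 5 members were higher: Hspa5, Manf and Xbp1 did not pass and Pdia2 fell under the filter on low counts. Without tumour 3, Dnajb11 and Herpud1 did not pass. Leaving out 1 tumour moved the count over all genes as well, to between 455 and 1261 higher and between 607 and 1374 lower. DESeq2 called 5 members higher (3.94% of all genes) and 1 lower (6.02%).

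**Figure D3:**
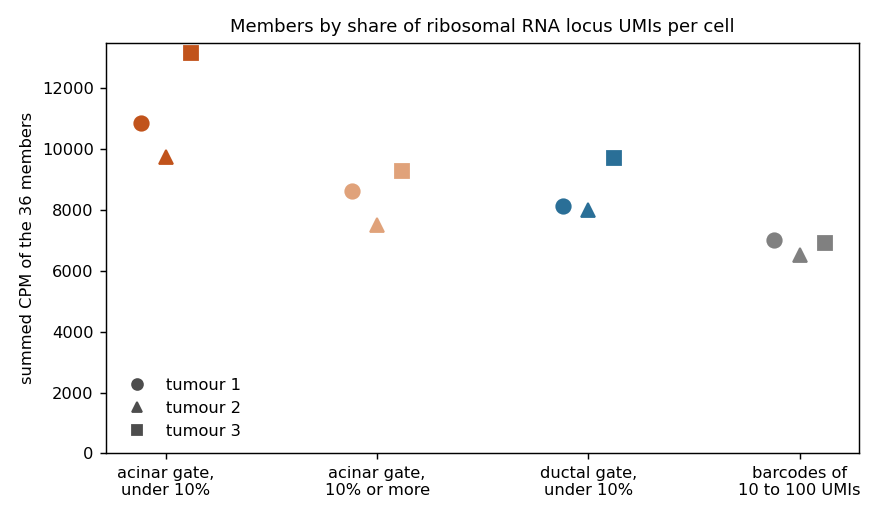
Summed level of the 36 members, in CPM of the UMIs outside the ribosomal RNA locus, by tumour. Groups are acinar-gate cells below and above the 10% share, ductal-gate cells below it and barcodes of 10 to 100 UMIs. Those small barcodes were taken to hold mostly RNA outside cells, which was not tested. Acinar-gate cells below 10% have the highest value in each tumour and the small barcodes the lowest.

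The summed level of the members, counted over UMIs outside the ribosomal RNA locus, was 10846, 9736 and 13166 CPM in acinar-gate cells below 10% and 8632, 7495 and 9266 CPM in those at 10% or more. It was 8129, 8000 and 9700 CPM in ductal-gate cells below 10%, and 7028, 6514 and 6916 CPM in barcodes of 10 to 100 UMIs. The acinar-gate cells at 10% or more thus lay between the other acinar-gate cells and the small barcodes in each tumour. They lay below the ductal-gate cells in tumours 2 and 3, but the tumour 2 value rests on 4 cells. At 1000 UMIs drawn from each cell, Sel1l was detected in 14.9%, 6.82% and 12.4% of acinar-gate cells, against 2.49%, 2.35% and 2.63% of ductal-gate cells. With all UMIs the shares were 27.1%, 20.5% and 20.1% in the acinar gate, at medians of 1631, 1326.5 and 1549 UMIs, against 8.03%, 5.88% and 12.6% in the ductal gate, at medians of 1659, 1286 and 1916 UMIs. Hspa5 was detected at 1000 UMIs in 42.7%, 52.3% and 38.8% of acinar-gate cells, against 29.1%, 36.5% and 36.3% of ductal-gate cells. The difference in tumour 3 was small, with exact Clopper-Pearson 95% intervals of 36.6% to 41.0% in the acinar gate and 29.5% to 43.6% in the ductal gate. These intervals cover counting error only. With all UMIs the Hspa5 shares were 59.5%, 56.8% and 53.3% in the acinar gate, against 45.4%, 42.4% and 57.9% in the ductal gate. Tumour 3, where ductal-gate cells had more UMIs, thus went the other way.

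The Msln gate rested on 27 cells of 1 tumour, tumour 3. Its single sum has no replicate, and calls on it assume that it varies as the other sums do, so gene values are given here as ratios per total UMI within tumour 3, with 95% counting intervals and no p. Against the ductal gate, 0 members were higher (2.17% of all genes) and 1 was lower (2.26%; 4.42% in either direction), with a median log2 difference of −0.14 over the members and −0.11 over all genes. The gene called lower was Sec61b, the beta subunit of the Sec61 channel, with 332 CPM in the Msln gate of tumour 3, against 750, 564 and 733 CPM in the ductal gates of tumours 1, 2 and 3, and a Msln to ductal ratio of 0.515 (0.392 to 0.667) within tumour 3. At an unadjusted p under 0.05, edgeR had 1 member higher (6.72% of all genes) and 7 lower (8.94%), and DESeq2 with adjustment called 0 higher (0.495%) and 0 lower (0.553%). Sec61b did not pass without tumour 1, without the tumour block, without the home-library filter or with another draw of the 1000 UMIs per cell. Among cells below 10%, 0 members were higher (2.06%) and 2 lower (3.09%; 5.15% in either direction), Sec61b and Rpn2; 0 were higher (6.0%) and 8 lower (9.25%) there at an unadjusted p under 0.05. The nuclear transcript Malat1 stood at 36536 CPM of the UMIs outside the ribosomal RNA locus in the Msln gate of tumour 3, against 8331 CPM in its ductal gate, and squamous markers at 2566 CPM in the Msln gate, against 51.2 CPM in the ductal gate; their part in the result was not tested.

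Set against the Msln gate, the acinar gate had 6 members higher (5.79% of all genes) and 1 lower (7.10%; 12.9% in either direction), with a median log2 difference of 0.51 over the members and 0.10 over all genes. This comparison and the other gate comparisons share sums. Sdf2l1 had 184 CPM in the acinar gate of tumour 3, against 24.8 CPM from 5 UMIs in the Msln gate, an acinar to Msln ratio of 5.81 (2.48 to 18.0). Sel1l had 243 CPM in the acinar gate of tumour 3, against 74.3 CPM in the Msln gate, a ratio of 2.56 (1.54 to 4.59), and Sec61b 969 CPM in the acinar gate, against 332 CPM in the Msln gate, a ratio of 2.28 (1.79 to 2.95). Dnajc3, an inhibitor of eIF2α kinases and co-chaperone of BiP, was called higher, with a ratio of 1.51 (1.02 to 2.32). Pdia2 and Edem1 were also called higher, but the Msln gate held 1 and 3 of their UMIs. Neither passed the filter on low counts through the Msln gate, so neither call is counted as support. Their ratios were 9.44 (1.68 to 374) and 3.70 (1.25 to 18.1). Dnajb9, a DnaJ protein that holds back Ire1, was the member called lower, with 30.4 CPM in the acinar gate of tumour 3, against 79.3 CPM in the Msln gate, a ratio of 0.30 (0.177 to 0.543), and it did not pass among cells below 10%. In those cells 13 members were higher (6.58%) and 0 lower (7.08%; 13.7% in either direction), with 1 lower at an unadjusted p under 0.05 (12%). Without tumour 1, 3 members were higher, Sdf2l1, Sel1l and Sec61b; DESeq2 called 2 higher (0.852%) and 0 lower (2.73%).

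All cells of each tumour were next ranked by the UMIs of 33 digestive enzyme genes and cut into 4 equal groups. They are here called enzyme groups 1 (lowest) to 4 (highest). For results on cells below 10% ribosomal RNA locus UMIs, those cells were ranked and cut anew, so their enzyme groups hold other cells. In enzyme group 4, 11 of the 36 members were higher than in enzyme group 1 (6.93% of all genes) and 0 were lower (9.51%; 16.4% in either direction), with a median log2 difference of 0.38 over the members and 0.0015 over all genes. They were Hspa5, Dnajc3, Dnajb11, Sdf2l1, Manf, Pdia2, Sel1l, Edem1, Xbp1, Sec61b and Ssr1. Pdia2 did not pass the filter on low counts through enzyme group 1, so its call is not counted as support. At an unadjusted p under 0.05, edgeR had 17 higher (13.4% of all genes) and 0 lower (15.9%), and DESeq2 with adjustment called 11 higher (5.56%) and 0 lower (7.38%). Without the tumour as a block, 3 of the 11 passed, Pdia2, Sel1l and Ssr1. Without tumour 1, 2 were higher, Pdia2 and Sel1l. Leaving out 1 tumour gave between 125 and 410 of all genes higher. Among cells below 10% ribosomal RNA locus UMIs, 14 were higher (8.63%) and 0 lower (11.9%; 20.5% in either direction; 0 lower also at an unadjusted p under 0.05, against 17.3% of all genes), all 11 again with Hsp90b1, Hyou1 and Pdia6 added.

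Sel1l had 45.3, 45.2, 87.9 and 249 CPM in enzyme groups 1 to 4 of tumour 1. It had 42.1, 67.9, 26.7 and 187 CPM in tumour 2, and 53.7, 172, 211 and 327 CPM in tumour 3. The highest group stood above the others in each tumour, while the middle groups lay well above enzyme group 1 in tumour 3 and, on 8 and 6 UMIs, on either side of it in tumour 2. The log2 difference of enzyme group 4 over enzyme group 1 was 2.59 ± 0.35 (adjusted p = 9.24e-05). Pdia2 had 2.21, 3.31, 15.0 and 54.1 CPM in enzyme groups 1 to 4 of tumour 1, 0, 0, 17.8 and 41.6 CPM in tumour 2, and 3.32, 40.7, 49.4 and 83.7 CPM in tumour 3. Its level was highest in enzyme group 4 in each tumour. Enzyme group 4 held 178 of its UMIs and enzyme group 1 held 12, a ratio per total UMI of 21.6 (95% counting interval 12.1 to 42.6), and Pdia2 did not pass the filter on low counts through enzyme group 1.

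Sdf2l1 had 70.7, 69.5, 107 and 148 CPM in enzyme groups 1 to 4 of tumour 1, 50.5, 25.5, 80.0 and 111 CPM in tumour 2, and 79.0, 160, 188 and 206 CPM in tumour 3 (log2 difference 1.25 ± 0.26, adjusted p = 0.00246). Ssr1 had 188, 194, 243 and 364 CPM in tumour 1, 152, 221, 302 and 312 CPM in tumour 2, and 216, 286, 322 and 419 CPM in tumour 3 (log2 difference 0.96 ± 0.19, adjusted p = 0.0017). In cells below 10% ribosomal RNA locus UMIs, with groups cut anew, Ssr1 rose with each step in tumours 1 and 2. There it had 236, 231, 397 and 521 CPM in enzyme groups 1 to 4 of tumour 3. In all cells Ssr1 was higher with each step of enzyme level in each tumour, and Sdf2l1 in tumour 3. Hspa5 did not follow the steps: it had 445, 553, 894 and 772 CPM in tumour 1, 463, 458, 804 and 638 CPM in tumour 2, and 729, 833, 816 and 1193 CPM in tumour 3, with a log2 difference of 0.67 ± 0.20 between enzyme groups 4 and 1 (adjusted p = 0.0274). Its peak lay in enzyme group 3 in tumours 1 and 2. Among cells below 10% ribosomal RNA locus UMIs, in groups cut anew, it had 585, 487, 829 and 896 CPM in enzyme groups 1 to 4 of tumour 1. There it had 519, 549, 899 and 840 CPM in tumour 2, so its peak lay in enzyme group 4 in tumour 1 and in enzyme group 3 in tumour 2. Xbp1 was at 0.99 ± 0.25, Manf at 0.86 ± 0.19 and Sec61b at 0.71 ± 0.18 (adjusted p = 0.0103, 0.00427 and 0.00855). Edem1 was at 1.30 ± 0.35 (edgeR, adjusted p = 0.0138). Tumour 2 again went in the other direction, at 6.94 CPM in enzyme group 4 and 25.3 CPM in enzyme group 1, from 1 and 3 UMIs. Among cells below 10%, in groups cut anew, tumour 2 had 49.8 CPM of Edem1 in enzyme group 4 and 11.8 CPM in enzyme group 1. Those values came from 8 and 1 UMIs.

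**Figure D4:**
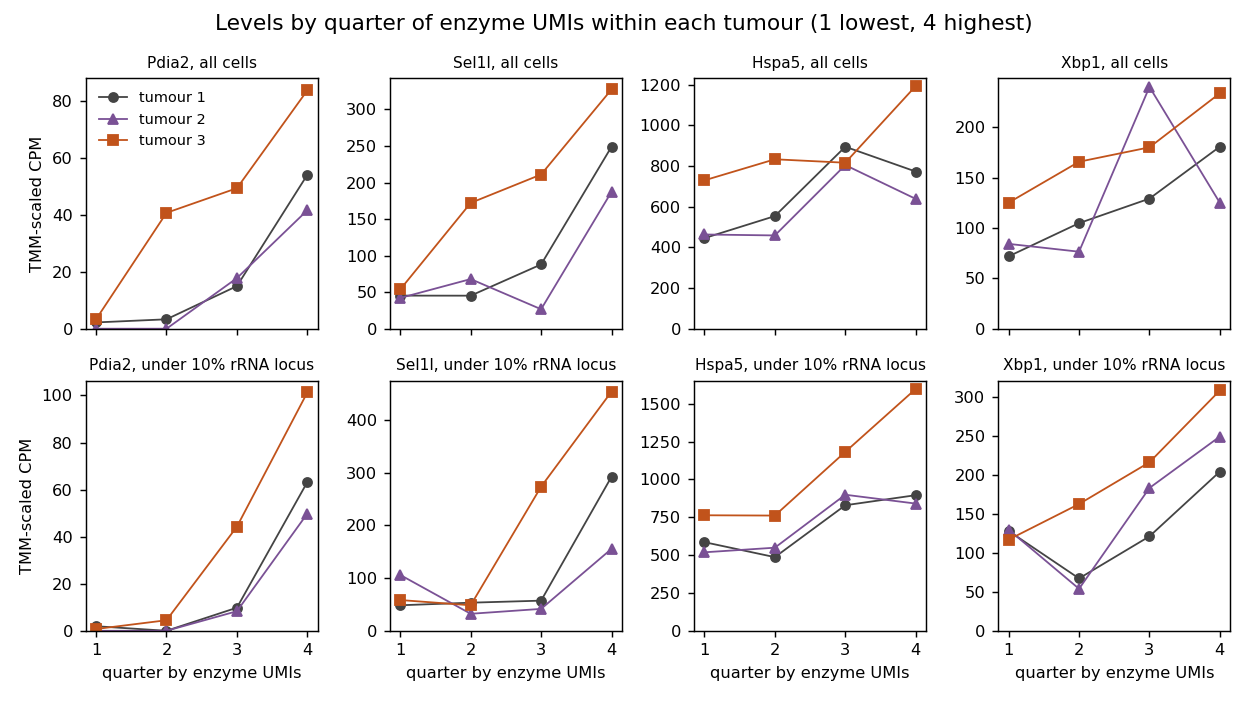
TMM-scaled CPM of Pdia2, Sel1l, Hspa5 and Xbp1 across enzyme groups 1 (lowest) to 4 (highest) of each tumour, for all cells (upper row) and for cells below 10% ribosomal RNA locus UMIs (lower row). In all cells Sel1l and Pdia2 are highest in enzyme group 4 in each tumour, and Hspa5 peaks in enzyme group 3 in tumours 1 and 2. In the lower row, with groups cut anew, Hspa5 peaks in enzyme group 4 in tumour 1 and in enzyme group 3 in tumour 2.

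The 25 members that did not pass ranged from −0.63 for Dnajb9 to 0.70 for Spcs3. Herpud1 was at −0.03 ± 0.23 and Ssr4 at −0.39 ± 0.23, so neither of the genes that were lower in the acinar gate passed on the enzyme scale. The signal peptidase, oligosaccharyltransferase and KDEL receptor genes had 0 calls here too. Ribosomal RNA locus genes took 2.06%, 3.06%, 27.5% and 9.22% of the UMIs in enzyme groups 1 to 4 of tumour 1, 1.48%, 1.71%, 10.0% and 11.0% in tumour 2, and 2.80%, 18.9%, 21.7% and 8.89% in tumour 3. The enzyme groups therefore differed in this share. Of the first enzyme groups 1 to 4 of tumour 3, 641, 120, 88 and 357 cells were below 10%. Cutting these cells anew therefore moved cells between groups. The Sel1l level was then 58.4, 48.5, 274 and 454 CPM in the new enzyme groups 1 to 4 of tumour 3. Whether the first enzyme group 2 stays raised without its other cells was not tested. In these cells, between enzyme groups 4 and 1, Hspa5 was at 0.80 ± 0.17 (adjusted p = 0.00149) and Sel1l at 2.53 ± 0.40 (adjusted p = 7.84e-05).

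Within the acinar gate, cells were split at the median enzyme rank of each tumour, and upper-enzyme cells were set against lower-enzyme cells. In upper-enzyme cells 4 of the 35 members tested were higher (0.554% of all genes) and 0 were lower (0.724%; 1.28% in either direction). At an unadjusted p under 0.05, edgeR had 21 higher (3.34% of all genes) and 0 lower (5.01%), and DESeq2 with adjustment called 1 higher, Sel1l (0.234%), and 0 lower (0.106%); Dnajb9 fell under the filter on low counts. The median log2 difference was 0.34 over the members and −0.02 over all genes, and 33 of 35 members had a positive value. Enzyme level and acinar gating draw on related genes, so this comparison and the previous ones are not independent of each other.

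Sel1l had 322, 348 and 302 CPM in upper-enzyme cells of tumours 1, 2 and 3, against 120, 115 and 195 CPM in lower-enzyme cells (log2 difference 0.95 ± 0.18, adjusted p = 0.00163). Pdia2 had 77.1, 81.9 and 81.3 CPM in upper-enzyme cells, against 14.3, 16.4 and 40.1 CPM in lower-enzyme cells. Too few sums of lower-enzyme cells reached the filter on low counts for Pdia2 to pass through them, so its call is not counted as support. Neither gene overlapped between the cell groups, and for both the gap was smallest in tumour 3. Hsp90b1 had 806, 819 and 1138 CPM in upper-enzyme cells, against 591, 492 and 792 CPM in lower-enzyme cells (log2 difference 0.52 ± 0.12, adjusted p = 0.0206). Pdia6, an isomerase that also curbs Ire1 signalling, had 275, 246 and 426 CPM in upper-enzyme cells, against 203, 131 and 269 CPM in lower-enzyme cells (log2 difference 0.60 ± 0.15, adjusted p = 0.0317). Hspa5 was at 0.44 ± 0.12 (adjusted p = 0.0728), Calr at 0.47 ± 0.14 (adjusted p = 0.0891) and Dnajc3 at 0.55 ± 0.16 (adjusted p = 0.0882), each higher in upper-enzyme cells of 3 of 3 tumours without passing. Xbp1, which differed between gates, was at 0.25 ± 0.17 (adjusted p = 0.791), with 194, 123 and 234 CPM in upper-enzyme cells, against 185, 148 and 176 CPM in lower-enzyme cells. Without the tumour block 0 members passed and edgeR's adjusted p was 0.193 for Sel1l. Without tumour 1, 2 passed, Pdia2 and Calr, without tumour 3, 2, Pdia2 and Sel1l, and without tumour 2, 8. Leaving out 1 tumour gave between 17 and 53 of all genes higher. Among cells below 10%, 4 were higher (0.928%) and 0 lower (0.571%; 1.50% in either direction; 0 lower also at an unadjusted p under 0.05, against 3.92% of all genes): Calr, Pdia2, Pdia6 and Sel1l.

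Ribosomal RNA locus genes took 2.96%, 2.65% and 11.8% of UMIs in upper-enzyme cells, against 19.0%, 5.35% and 19.2% in lower-enzyme cells, so the lower-enzyme cells held more of them in each tumour. Cycling genes stood at 2825, 3448 and 2395 CPM of the UMIs outside the ribosomal RNA locus in upper-enzyme cells, against 2925, 3905 and 2820 CPM in lower-enzyme cells. The part of either in the result was not tested beyond the counts for cells below 10%.

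Of the 141 other genes of the pathway that were found, 130 were tested between gates, and 17 were higher and 16 lower in the acinar gate than in the ductal gate, with a median log2 difference of −0.01. These shares, 13.1% higher and 12.3% lower, lay near or below those of all genes, 14.4% and 15.5%. Erp27, Bhlha15 and Tmx4 passed the filter on low counts only through the acinar gate, and Ern2 only through the ductal gate, so they are given without a p. Among the sensors and stress factors of the unfolded protein response, 3 were higher and 2 lower of 14 tested. Eif2ak3 (PERK), a sensor that slows translation, was higher at 1.71 ± 0.32 (adjusted p = 1.07e-06). Ern2, the Ire1 form of mucous epithelia, was lower, with 9.85, 0 and 2.91 CPM in the acinar gates, against 36.6, 23.5 and 35.6 CPM in the ductal gates. Bhlha15 (Mist1), a transcription factor of secretory cells that is also one of the acinar markers, had 23.4, 26.6 and 30.2 CPM in the acinar gates, against 1.41, 0 and 5.08 CPM in the ductal gates, where it had 4 UMIs in all, a ratio per total UMI of 9.44 with a 95% counting interval of 3.60 to 35.2. The list thus did not share a direction: Creb3l1 (−1.69 ± 0.28, adjusted p = 5.54e-08) was lower, and Eif2ak3 and Atf4 (0.94 ± 0.19, adjusted p = 6.1e-06) were higher.

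Of 34 other folding and oxidation genes tested, 4 were higher and 3 lower. Erp27, a non-catalytic member of the disulphide isomerase family, had 121, 133 and 135 CPM in the acinar gates, against 0, 7.83 and 3.39 CPM in the ductal gates, where it had 3 UMIs in all, a ratio of 57.8 with a 95% counting interval of 19.7 to 281. Agr2, an isomerase relative needed for mucin folding, was lower, with 19.7, 8.85 and 34.7 CPM in the acinar gates, against 110, 141 and 403 CPM in the ductal gates (log2 difference −3.31 ± 0.23, adjusted p = 9.32e-46). These relatives within one protein family differed in opposite directions, and neither overlapped between gates. Fkbp11, an ER prolyl isomerase of secretory tissues, had 448, 266 and 388 CPM in the acinar gates, against 170, 93.9 and 77.9 CPM in the ductal gates (1.76 ± 0.18, adjusted p = 5.79e-20). Tmx4, a membrane-bound thioredoxin relative, had 39.4, 17.7 and 46.0 CPM in the acinar gates, against 8.45, 7.83 and 8.47 CPM in the ductal gates.

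In ER-associated degradation 3 other genes were higher and 3 lower of 17 tested, with Edem2, which starts mannose trimming of misfolded glycoproteins, at 1.59 ± 0.27 (adjusted p = 5.43e-08). Targeting, translocon, peptidase and glycosylation genes had 3 higher and 3 lower of 24. Genes of ER to Golgi transport had 4 higher and 5 lower of 41. Tmed6, a p24-family protein of early secretory membranes, had 409, 416 and 410 CPM in the acinar gates, against 67.6, 78.3 and 66.0 CPM in the ductal gates (2.59 ± 0.20, adjusted p = 3.88e-37), values that varied little within a gate.

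On the enzyme scale 15 of 127 pathway genes (11.8%, against 6.93% of all genes) were higher and 2 (1.57%, against 9.51%) lower in enzyme group 4 than in enzyme group 1. The 6 with the largest change were Erp27, Tmed6 (2.89 ± 0.35), Bhlha15, Fkbp11 (2.05 ± 0.26), Ern2 and Agr2 (−1.89 ± 0.40), as log2 differences. Of the 15 genes called higher, 3 did not pass the filter on low counts through enzyme group 1, Erp27 and Bhlha15 among them. Their calls are not counted as support, though the 11.8% includes them. Erp27 and Bhlha15 had ratios per total UMI of 12.4 (95% counting interval 9.27 to 17.0) and 5.35 (3.26 to 9.12). Ern2 passed the filter only through enzyme groups below the highest, with 12 UMIs in enzyme group 4 and 71 in enzyme group 1, and its call was lost with DESeq2, without the tumour block and without any 1 of the 3 tumours. Between upper-enzyme and lower-enzyme acinar-gate cells, 2 of 106 were higher (1.89%, against 0.554% of all genes). Erp27 had 165, 246 and 184 CPM in upper-enzyme cells, against 65.6, 49.2 and 90.0 CPM in lower-enzyme cells (1.20 ± 0.21, adjusted p = 0.000724), and Tmed6 496, 655 and 504 CPM in upper-enzyme cells, against 305, 246 and 335 CPM in lower-enzyme cells (0.72 ± 0.14, adjusted p = 0.00363). Neither passed without the tumour block, and Tmed6 did not pass with DESeq2 or without the 5% of cells with the most UMIs, where its adjusted p reached 0.343 at most.

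In the Msln gate 1 pathway gene was higher (0.769%, against 2.17% of all genes) and 6 were lower (4.62%, against 2.26%) than in the ductal gate, of 130. Ero1l, the oxidase that recharges disulphide isomerases, had 694 CPM in the Msln gate of tumour 3, against 107, 31.3 and 108 CPM in the ductal gates, and a Msln to ductal ratio of 7.28 (5.38 to 9.94) within tumour 3. Agr2 was lower, with 3 UMIs in the Msln gate of tumour 3, against 238 in its ductal gate. The ratio was 0.0419 with a 95% counting interval of 0.00859 to 0.124. Agr2 did not pass the filter on low counts through the Msln gate, so its call is not counted as support. Of the others called lower, the 4 with the largest log2 change are named here. They were Fkbp11, at a ratio of 0.289 (0.0756 to 0.792), and Prdx4, a peroxiredoxin of the ER, at 0.319 (0.124 to 0.691). Copz1, a coat protein of COPI vesicles, was at 0.327 (0.116 to 0.754), and Cnpy2 at 0.352 (0.170 to 0.656). DESeq2 and the fit without the tumour block ended all 4 of these calls, and Copz1 passed in only 4 of 15 alternatives, Prdx4 in 8 and Fkbp11 and Cnpy2 in 11 each.

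Against the Msln gate, the acinar gate had 14 of the 130 pathway genes higher (10.8%, against 5.79% of all genes) and 3 lower (2.31%, against 7.10%). Erp27, Bhlha15, Txndc12 and Srp54a did not pass the filter on low counts through the Msln gate, so their calls are not counted as support. The share called higher still includes them. Erp27 had 511 UMIs among 4422191 in the acinar gate of tumour 3, against 2 among 184649 in the Msln gate. Its acinar to Msln ratio was 10.7 (2.94 to 88.3). Bhlha15, Txndc12 and Srp54a had 114, 93 and 100 UMIs in that acinar gate, against 0 in the Msln gate. Equal levels would have given 4.76, 3.88 and 4.18 UMIs in the Msln gate, so with the 3 counts that a count of 0 allows there the levels were at least 1.59-fold, 1.29-fold and 1.39-fold higher in the acinar gate. Txndc12 lost its call in 6 of 14 alternatives, Srp54a in 5 of 10 and Bhlha15 in 1 of 11.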

How the data were processed

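The authors deposited UMI counts for every gene and barcode, as whole numbers without normalization, made with Cell Ranger 3.0.2 per the file headers from 10x Genomics 3′ libraries; the submitters' processing notes name Cell Ranger 3, Seurat 3.1 and mm10. No source used here names the annotation behind the counts. The tables held 11502184, 9737397 and 16521484 UMIs over all barcodes.

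Cells were barcodes with at least 1000 UMIs and 500 genes, at most 20% mitochondrial UMIs and at least 60% of their UMIs over the libraries in their own library. No doublet caller was run; leaving out the 5% of cells with the most UMIs was tried instead. For gating and ranking only, each cell was thinned to 1000 UMIs. Gate scores were (Ctrb1 + Clps)/4, (Tff1 + Lgals4)/4 and (Msln + Tm4sf1 + F3)/3 UMIs; a cell entered the gate of its highest score if that was at least 1 and 2 times each other score. Unthinned UMIs were summed per tumour and gate, enzyme group or upper and lower enzyme cells, where a sum had 20 or more cells. The gate fit used 7 sums of 100395 to 4422191 UMIs and 8689 genes with 2 residual degrees of freedom; the enzyme group fit 12 sums, 8016 genes and 6 degrees; the acinar split 6 sums of 44394 to 2305618 UMIs, 4720 genes and 2 degrees. edgeR 4.0.16 (R 4.3.3) ran filterByExpr, TMM and glmQLFTest, blocked by tumour, and p-values were adjusted over all tested genes by Benjamini and Hochberg's method; gate genes, or enzyme genes, were left out of counts of genes. A gene passed the filter with 10 counts at the median sum in as many sums as the smallest group holds, here 1 in the gate fit. Genes that passed only through the group where they were higher are given as ratios of UMIs per total with exact counting intervals. Outside the Msln comparisons these ratios pool the tumours and ignore their pairing. Their totals include ribosomal RNA locus UMIs and are not TMM-scaled, so the ratios differ from those of the printed CPM. Printed CPM are TMM-scaled within a fit unless stated, SE is the log2 difference over the root of the F statistic, and intervals and counts of 0 cover counting error only. Sums of 1 tumour share an animal, which pairs them; deviations from the group means correlated at 0.0720 on average within a tumour in the gate fit, 0.162 in the enzyme group fit and 0.136 in the acinar split. With the tumour as a block, the p-values measure how differences within a tumour vary between the 3 tumours. With few residual degrees of freedom, they lean on the spread shared across genes. The Msln gate has a single sum, so no spread between its own sums enters.

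The members, role lists and pathway lists were chosen with earlier results of these data known. All members were to be named, and of the other pathway genes the 6 called with the largest log2 change per comparison, plus genes with 0 UMIs in a gate; Atf4, Eif2ak3, Creb3l1 and Edem2 were added after their values were seen. Alternatives were 18 settings planned beforehand and 5 added after the ribosomal RNA locus shares were seen; DESeq2 1.42.0 was one. The fits were tested on simulated data with 2-fold and 4-fold changes in few genes, the same spread for all genes and no tumour effect. Of these changes the enzyme group fit recovered 33.0% and 93.8% and the acinar split 72.0% and 100%. This was not done for the Msln gate. Coordinates and overlaps come from GENCODE of mm10 matched by gene identifier, and promoters from RefSeq. The motifs were chosen as response elements of this pathway, and the E-box as the core bound by Bhlha15.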

Additional observations from a re-analysis of the deposited data

Results flagged for a closer look

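Barcodes of 10 to 100 UMIs, which entered no comparison, held RNA of the members above the limit that a count of 0 allows (3 counts): all 36 members had more than 3 UMIs there in each tumour, 36 of 36 in tumours 1, 2 and 3. Their UMIs summed to 14549, 7895 and 12833. Pdia2 had 34, 11 and 28 of these UMIs. Groups of 3 tumours are too small for a test of single samples that stand apart.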

How the results depend on the processing

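Of the 11 members called between the acinar and the ductal gate, every one kept its direction in all alternatives in which it was tested. Sel1l also stayed past the threshold. Between enzyme groups 4 and 1 the direction held for 11 members, with Sel1l past the threshold throughout. Pdia2 stayed past the threshold in both comparisons wherever it was tested. In the main fits Pdia2 did not pass the filter on low counts through the lower group, so this is not counted as support. In the acinar split 4 members kept their direction, and none passed throughout. Genes that did not pass were less settled: of 25 uncalled members between the acinar and the ductal gate, 14 changed sign in at least 1 alternative and 8 were called in at least 1; the cause was not tested. The Msln comparisons gave no value without tumour 3, without the 5% of cells with the most UMIs, with cells of 2000 or more UMIs, with sums of 50 or more cells or with a higher gate minimum, since no Msln sum was left.

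Members higher in the acinar than in the ductal gate numbered 9, and 5 with DESeq2, 14 without the home-library filter, 14 without the cells richest in ribosomal RNA locus UMIs, 15 with cells below 10% and 3 with the acinar gate at 10% or more; those lower numbered 2, and 1 with DESeq2, without the replicate block, with the higher gate minimum and with the acinar gate at 10% or more. Without the block 8 were higher. Leaving out a tumour gave 5 to 10 higher and 1 to 2 lower. Members lower in the Msln than in the ductal gate numbered 1, and 0 with DESeq2, without the block, with another thinning seed, without the cells richest in ribosomal RNA locus UMIs and with the acinar gate at 10% or more, 2 with cells below 10%, 3 without the home-library filter and with the lower gate minimum, and 4 with sums of 15 or more cells, where tumour 1 entered; leaving out a tumour gave 0 to 1 lower. Members higher in the acinar than in the Msln gate numbered 6, and 2 with DESeq2, 3 with the acinar gate at 10% or more, 12 with sums of 15 or more cells, 13 with cells below 10%, 16 with the lower gate minimum and 20 without the home-library filter; the 1 lower became 0 with DESeq2, with no low-count filter, without the block, without the cells richest in ribosomal RNA locus UMIs, with cells below 10% and with enzyme and gate genes, alone or with ribosomal RNA locus and mitochondrial genes, out of the library sizes. Leaving out a tumour gave 3 to 7 higher and 0 to 1 lower.

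Between enzyme groups 4 and 1, 11 members were higher, 3 without the replicate block and 19 without the home-library filter; 1 was lower without the cells richest in ribosomal RNA locus UMIs, and leaving out a tumour gave 2 to 10 higher. In the acinar split 4 were higher, 0 without the block, 1 with DESeq2, 2 with the lower gate minimum, 7 with another thinning seed, 8 with sums of 50 or more cells, 10 without the home-library filter and 10 with cells of 2000 or more UMIs; leaving out a tumour gave 2 to 8. Counts over all genes moved too: with DESeq2, 342 genes were higher and 523 lower in the acinar than in the ductal gate, against 1254 and 1349 with edgeR. Leaving out a tumour gave 455 to 1261 higher and 607 to 1374 lower there, in fits of 4196 to 8525 genes. Between enzyme groups 4 and 1 it gave 125 to 410 higher, and in the acinar split 17 to 53. The member counts per setting stand here without the share of all genes, so they are not read as results about the members. The smallest sums, 44394 UMIs in tumour 2, limit what the acinar split can show. Why counts moved between settings was not tested.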
